A study of Mus musculus with 4 samples.

Results

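Small leucine-rich proteoglycans are secreted proteins whose leucine-rich repeats fold into a curved solenoid that binds collagen, and most carry chondroitin, dermatan or keratan sulfate chains. They set the width and spacing of collagen fibrils, hold growth factors such as TGF-beta in the matrix, and some signal to cells when proteases release them. In joints they are made by synovial fibroblasts, chondrocytes, tendon cells and bone cells. The 10 genes described here were taken by name: Dcn, Bgn and Aspn of class I, Fmod, Lum, Prelp, Kera and Omd of class II, and Epyc and Ogn of class III. All 10 were found among the 22180 genes measured, each as the probe set with the highest mean of those that name 1 gene.

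The samples were 2 arthritic and 2 nonarthritic pools of mouse synovium, the lining of the joint, taken from around the ankle, with 1 array of the MoGene-2_0-st type per pool. The arthritic pools each held tissue of 10 C57BL/6J males, 12 weeks old at induction, labelled day 10 and the peak of inflammation, after 3 injections of 150 microlitres of serum that transfers arthritis, given on day 0, day 2 and day 7. The nonarthritic pools each held tissue of 3 such mice given 150 microlitres of saline on the same days and labelled day 0. All 4 pools carry K/BxN, the strain that supplies the serum, as a label, which for the nonarthritic pools conflicts with the saline, and labelled day and pool size differ between the groups along with arthritis. In this model antibodies passed with the serum set off joint inflammation, so the induction of disease does not need the recipient's own T or B cells. The comparison asks how transcripts of these matrix proteins differ between inflamed and nonarthritic synovium.

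The values are log2 signals, and an array signal depends on the probes as well as on the transcript, so levels of different genes are not set against each other. On every array all 10 genes lay above the 95th percentile of the 1105 olfactory receptor genes, which was 6.77 and 6.94 in the arthritic pools and 6.86 and 7.36 in the nonarthritic pools. The tissue held signal of other tissues of the ankle as well. Summed over a list of markers on the linear scale, 8 skeletal muscle genes gave 5113 and 3326 in the arthritic pools, against 28048 and 38533 in the nonarthritic pools, and all 8 fell. The 5 adipocyte markers measured gave 4454 and 2896, against 16175 and 15838, and all 5 fell, while all 6 neutrophil markers rose, with sums of 9566 and 11613, against 1273 and 893. The 6 markers of synovial lining cells gave 16094 and 15831 in the arthritic pools, against 31238 and 29633 in the nonarthritic pools, and 4 fell. The 10 fibroblast markers gave 47893 and 43349 in the arthritic pools, against 35230 and 33014 in the nonarthritic pools, with 4 that rose and 1 that fell. These counts rest on all 4 pools. With arthritic pool 1, arthritic pool 2, nonarthritic pool 1 and nonarthritic pool 2 left out in turn, 8, 3, 8 and 5 muscle markers, 5, 2, 3 and 3 adipocyte markers and 3, 1, 0 and 0 lining markers fell. In the same order 5, 2, 6 and 5 neutrophil markers and 1, 0, 2 and 1 fibroblast markers rose, and no fibroblast marker fell. In such bulk tissue, fewer cells of a type and less RNA per cell cannot be told apart.

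The 10 genes did not move as a block in arthritic synovium: Lum and Kera rose, Omd fell and 7 did not pass the test (limma, adjusted p under 0.05 over all 22180 genes). A gene passed in 15.3% of all cases, with 8.72% higher and 6.62% lower in arthritic synovium. The median log2 fold change was 0.06 for the 10 genes and 0.005 for all genes. The groups did not overlap in 7 of the 10 genes, near the 56.4% of all genes for which that held. The 3 genes that passed are all of class II, the mainly keratan sulfate class, and they moved in both directions.

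**Figure D1:**
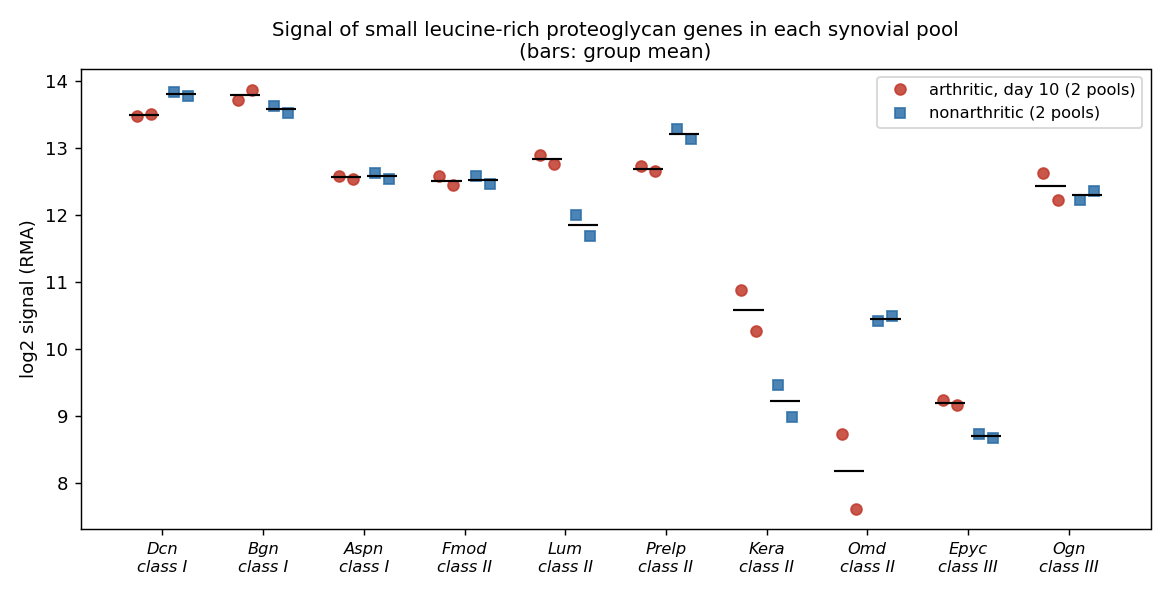
Log2 signal (vertical axis) of each of the 10 genes in the 2 arthritic pools (red circles) and the 2 nonarthritic pools (blue squares), with the group mean as a black bar. Lum and Kera sit higher and Omd lower in both arthritic pools, while Aspn, Fmod and Ogn overlap.

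Promoter windows of 4 of the genes are shown, those of Kera and Omd because the signals of these genes changed and those of Aspn and Ogn because they flank Omd on chromosome 13 and did not change detectably. Each is the 250 bases before the annotated transcript start, 5′ to 3′, from RefSeq on GRCm38.p6, plus strand, at chr10:97606955-97607204 for Kera, chr13:49582212-49582461 for Omd, chr13:49544193-49544442 for Aspn and chr13:49607765-49608014 for Ogn. Capitals mark matches, on either strand, to TATAAA (the TATA box), TGANTCA (AP-1), TGTGGT (Runx factors) or CANNTG (the E-box).
Kera: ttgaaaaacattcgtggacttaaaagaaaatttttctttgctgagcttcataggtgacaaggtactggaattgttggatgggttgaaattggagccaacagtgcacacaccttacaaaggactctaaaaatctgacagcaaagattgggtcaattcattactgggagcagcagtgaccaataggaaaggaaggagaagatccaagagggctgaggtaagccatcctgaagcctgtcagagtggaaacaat
Omd: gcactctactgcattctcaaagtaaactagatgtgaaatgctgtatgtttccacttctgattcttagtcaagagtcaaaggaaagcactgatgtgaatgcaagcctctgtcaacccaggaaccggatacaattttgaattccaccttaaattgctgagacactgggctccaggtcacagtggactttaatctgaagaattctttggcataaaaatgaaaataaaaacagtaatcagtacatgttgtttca
Aspn: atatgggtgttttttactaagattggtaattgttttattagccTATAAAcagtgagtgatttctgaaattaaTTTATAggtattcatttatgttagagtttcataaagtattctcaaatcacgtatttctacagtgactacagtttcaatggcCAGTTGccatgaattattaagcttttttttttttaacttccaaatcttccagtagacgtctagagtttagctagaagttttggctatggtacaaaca
Ogn: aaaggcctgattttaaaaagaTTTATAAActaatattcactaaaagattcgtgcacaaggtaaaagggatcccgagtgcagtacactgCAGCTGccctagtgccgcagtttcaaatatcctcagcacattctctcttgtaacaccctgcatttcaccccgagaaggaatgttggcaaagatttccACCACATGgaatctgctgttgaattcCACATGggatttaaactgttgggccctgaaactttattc
The Kera and Omd windows held no match to any of the 4 motifs. The Aspn window held 2 matches to TATAAA and 1 E-box, and the Ogn window held 2 overlapping matches to TATAAA, 1 Runx match that overlaps an E-box, and 3 E-boxes in all. Of 32851 promoter windows of the same length, 12.4% held TATAAA, 6.75% the AP-1 letters, 14% the Runx letters and 66.2% an E-box. Windows were at hand for 8 of the 10 genes, all but Dcn and Lum, and gave 9 windows in all, of which 2 held TATAAA, 0 the AP-1 letters, 1 the Runx letters and 5 an E-box. A match to letters is a description of the sequence and not a binding site.

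Among class I, decorin, Dcn, coats collagen fibrils and binds TGF-beta. Its signal was 13.48 and 13.51 in the arthritic pools, against 13.85 and 13.79 in the nonarthritic pools. Both arthritic pools lay below both nonarthritic pools, yet the difference did not pass the test (log2 fold change -0.33 ± 0.15 SE, adjusted p = 0.209), and its 95% interval ran from -0.68 to 0.03. A variance prior that follows the mean signal gave a lower adjusted p, 0.0195. At the lower bound of that interval the arthritic signal would be 0.62 times the nonarthritic signal.

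Biglycan, Bgn, is close in sequence to decorin and in soluble form signals to macrophages through Toll-like receptors. It read 13.73 and 13.88 in the arthritic pools, against 13.64 and 13.53 in the nonarthritic pools, so the arthritic pools were higher without overlap. The log2 fold change was 0.22 ± 0.16 SE (adjusted p = 0.422, 95% interval -0.15 to 0.59). A further probe set of Bgn read 12.02 and 12.05 in the arthritic pools, against 11.58 and 11.56 in the nonarthritic pools, with a log2 fold change of 0.47 ± 0.15 SE that also missed the threshold (adjusted p = 0.0856). Relative to Dcn on the same array, Bgn was 0.55 log2 units higher in arthritic than in nonarthritic synovium. That difference was not tested.

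Asporin, Aspn, which has a run of aspartates in place of a glycosaminoglycan chain and restrains TGF-beta, read 12.59 and 12.55 in the arthritic pools, against 12.64 and 12.55 in the nonarthritic pools. The groups overlapped, and the log2 fold change was -0.03 ± 0.15 SE (adjusted p = 0.943, 95% interval -0.38 to 0.33). The sign of so small a value is not settled: it was 0.07 with arrays centred on their medians.

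Among class II, lumican, Lum, and fibromodulin, Fmod, bind neighbouring or shared sites on collagen I and both carry keratan sulfate. Lum read 12.90 and 12.77 in the arthritic pools, against 12.01 and 11.69 in the nonarthritic pools. All arthritic values lay above all nonarthritic ones, and the lowest arthritic value was higher than the highest nonarthritic value by more than either group's own gap. The fold change was 1.98 (log2 fold change 0.99 ± 0.18 SE, adjusted p = 0.00839, 95% interval 0.58 to 1.39). Without nonarthritic pool 1 Lum still passed (adjusted p = 0.0458), and without arthritic pool 1, arthritic pool 2 or nonarthritic pool 2 it did not (adjusted p = 0.119, 0.119 and 0.117).

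Fmod read 12.59 and 12.45 in the arthritic pools, against 12.59 and 12.47 in the nonarthritic pools, nearly the same values. Its log2 fold change was -0.01 ± 0.16 SE (adjusted p = 0.978, 95% interval -0.38 to 0.36), and its sign turned to 0.085 with arrays centred on their medians. Another probe set of Fmod gave -0.13 ± 0.18 SE (adjusted p = 0.713). Relative to Fmod on the same array, Lum was 0.995 log2 units higher in arthritic than in nonarthritic synovium, a difference that was not tested.

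Prelp encodes a protein with a basic, heparin-binding end that ties basement membranes to collagen. It read 12.73 and 12.66 in the arthritic pools, against 13.29 and 13.14 in the nonarthritic pools. The arthritic pools were lower without overlap, but the value missed the threshold (log2 fold change -0.52 ± 0.16 SE, adjusted p = 0.0639, unadjusted 95% interval -0.88 to -0.16). The adjusted p was 0.00672 with the variance prior that follows mean signal, 0.0374 with dim genes left out and 0.0388 with quantile normalization again. Another probe set, much dimmer, read 7.58 and 7.43 in the arthritic pools, against 7.84 and 7.45 in the nonarthritic pools, and gave -0.14 ± 0.19 SE (adjusted p = 0.69).

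Keratocan, Kera, is best known from the cornea and is also made by tendon cells. It read 10.89 and 10.27 in the arthritic pools, against 9.47 and 8.99 in the nonarthritic pools. The groups did not overlap, although the pools of each group stood 0.62 and 0.48 log2 units apart. Kera had the largest rise of the 10 genes, 2.55-fold (log2 fold change 1.35 ± 0.25 SE, adjusted p = 0.00964, 95% interval 0.78 to 1.92). The call was lost with any pool left out: the adjusted p was 0.132 without arthritic pool 1, 0.0853 without arthritic pool 2, 0.0635 without nonarthritic pool 1 and 0.174 without nonarthritic pool 2. Fmod, 1 of the 10 genes and also listed as a tendon marker, did not change detectably (-0.01). Of 5 other tendon markers, the transcription factor gene Scx (1.52) and the thrombospondin gene Thbs4 (0.72) rose and none fell. Those 5 summed to 17784 and 16148 in the arthritic pools, against 11550 and 9503 in the nonarthritic pools, and their part in the Kera result was not tested. Without nonarthritic pool 1, 1 of the 5 rose, and without any other pool none did.

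Osteoadherin, Omd, is a keratan sulfate protein of bone matrix with an acidic end that binds mineral and with affinity for osteoblasts. It read 8.73 and 7.62 in the arthritic pools, against 10.42 and 10.49 in the nonarthritic pools. Both arthritic pools lay far below the nonarthritic pools, and the arthritic pools stood 1.11 log2 units apart. The signal was 4.86-fold lower in arthritic synovium (log2 fold change -2.28 ± 0.32 SE, adjusted p = 0.00285, 95% interval -3.01 to -1.55). That was the largest change among the 10 genes in either direction. The log2 fold change was -2.84 without arthritic pool 1 (adjusted p = 0.0279) and -1.73 without arthritic pool 2 (0.0552). Leaving out nonarthritic pool 1 gave -2.32 (0.0743) and leaving out nonarthritic pool 2 gave -2.25 (0.12).

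Of 8 measured osteoblast and osteocyte markers, 4 fell and none rose, with a median of -1.0. The 4 that fell were Phex, Sost, Mepe and the dentin matrix gene Dmp1, which was not above the olfactory receptor level on any array, and Bglap, Ibsp, Sp7 and Alpl did not pass; they are named after their values were seen. The summed signal of the 8 was 3963 and 1760 in the arthritic pools, against 6350 and 5683 in the nonarthritic pools. Ibsp, which did not pass, adds the largest part of that sum on every array, so the sum largely follows this gene. It read 11.38 and 9.76 in the arthritic pools. Alpl read 9.16 and 8.08 there, Sp7 7.38 and 6.65 and Phex 6.49 and 5.78, so these and Ibsp dropped in arthritic pool 2, as Omd did. Sost read 7.31 and 7.29, Mepe 7.16 and 7.02, Bglap 6.60 and 6.74 and Dmp1 6.14 and 6.20, without a gap of that size. Phex, Bglap and Dmp1 were not above the olfactory receptor level in either arthritic pool, so their gaps cannot be judged. Sp7 was not above it in arthritic pool 2, so its gap may be understated. Of the other markers, Ibsp, Alpl and Sp7 dropped in arthritic pool 2. Sost and Mepe did not show such a gap, but they read close to the olfactory receptor level in both arthritic pools. With arthritic pool 1, arthritic pool 2, nonarthritic pool 1 and nonarthritic pool 2 left out in turn, 3, 0, 0 and 1 of the 8 fell. Muscle, adipocyte and lining markers were lower in the same direction. On arthritic pool 1, 8 of 8 muscle, 4 of 5 adipocyte and 4 of 6 lining markers read higher than on arthritic pool 2. So did 6 of the 8 bone markers, so this pool pattern was not particular to the bone list. The part of any of these lists in the Omd result was not tested.

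Among class III, epiphycan, Epyc, is a dermatan sulfate protein of growth plate cartilage. It read 9.24 and 9.16 in the arthritic pools, against 8.73 and 8.67 in the nonarthritic pools. The groups were apart with little spread, and the value fell short of the threshold (log2 fold change 0.50 ± 0.15 SE, adjusted p = 0.0672, unadjusted 95% interval 0.14 to 0.86); with dim genes left out the adjusted p was 0.0405. Chondrocyte markers were mixed, with 5 of 13 higher and 4 lower by the test and a summed signal of 18087 and 14808 in the arthritic pools, against 28697 and 25534 in the nonarthritic pools, and their part in the Epyc value was not tested. The median log2 fold change of the 13 was 0.01. The markers that rose were Matn3 (2.31), Acan (2.03), Hapln1 (1.21), Col2a1 (0.86) and Sox9 (0.80). Those that fell were Chad (-3.62), Cytl1 (-3.51), Sox6 (-1.30) and Sox5 (-0.75). Matn3 was not above the olfactory receptor level in either nonarthritic pool. These genes are named after their values were seen. With the pools left out in the order used above, 1, 1, 1 and 1 of the 13 rose and 3, 2, 2 and 2 fell.

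Osteoglycin, Ogn, also called mimecan, is a small keratan sulfate protein that takes part in fibril assembly. It read 12.64 and 12.23 in the arthritic pools, against 12.23 and 12.37 in the nonarthritic pools, and the groups overlapped. The log2 fold change was 0.14 ± 0.19 SE (adjusted p = 0.705, 95% interval -0.30 to 0.57), and it was -0.07 without arthritic pool 1.

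**Figure D2:**
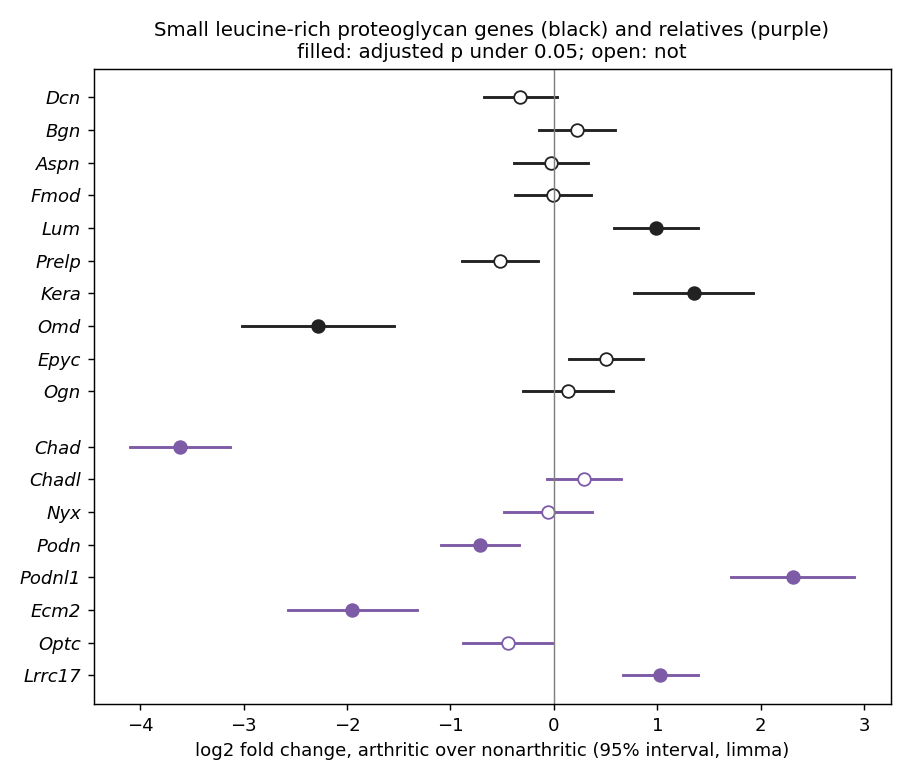
Log2 fold change of arthritic over nonarthritic synovium (horizontal axis) with its 95% interval for the 10 genes (black) and 8 relatives (purple), filled where the adjusted p was under 0.05. Lum and Kera lie to the right and Omd to the left of 0, and the relatives reach from -3.62 for Chad to 2.31 for Podnl1.

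Within each chromosomal cluster some genes passed and others did not, or none passed, and those that passed in a cluster moved the same way. In RefSeq, Dcn, Lum, Kera and Epyc follow each other on chromosome 10 with no other protein-coding gene between them. Lum and Kera, in the middle of that row, rose, Epyc at its end had a value of 0.50 and Dcn at its other end -0.33. Relative to Dcn on the same array, Lum was 1.31 log2 units higher in arthritic than in nonarthritic synovium.

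On chromosome 13 the order is Ecm2, Aspn, Omd and Ogn, and the whole row lies within the span of the centromere protein gene Cenpp, whose own signal gave a log2 fold change of 0.22 ± 0.16 SE (adjusted p = 0.432) and was not above the olfactory receptor level on any array. Omd fell, as did Ecm2, a leucine-rich matrix gene, whereas Aspn between them and Ogn beyond Omd had values of -0.03 and 0.14. Ecm2 read 10.81 and 9.92 in the arthritic pools, against 12.28 and 12.35 in the nonarthritic pools (log2 fold change -1.95 ± 0.27 SE, adjusted p = 0.0028). Within arrays, the difference of Omd from Ogn changed by -2.42 log2 units between arthritic and nonarthritic synovium, and that of Omd from Aspn by -2.26. On chromosome 1, Optc, Prelp and Fmod stand in a row and none of them passed (-0.45, -0.52 and -0.01), and Bgn lies on the X chromosome apart from the others. Differences between neighbours were not tested.

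**Figure D3:**
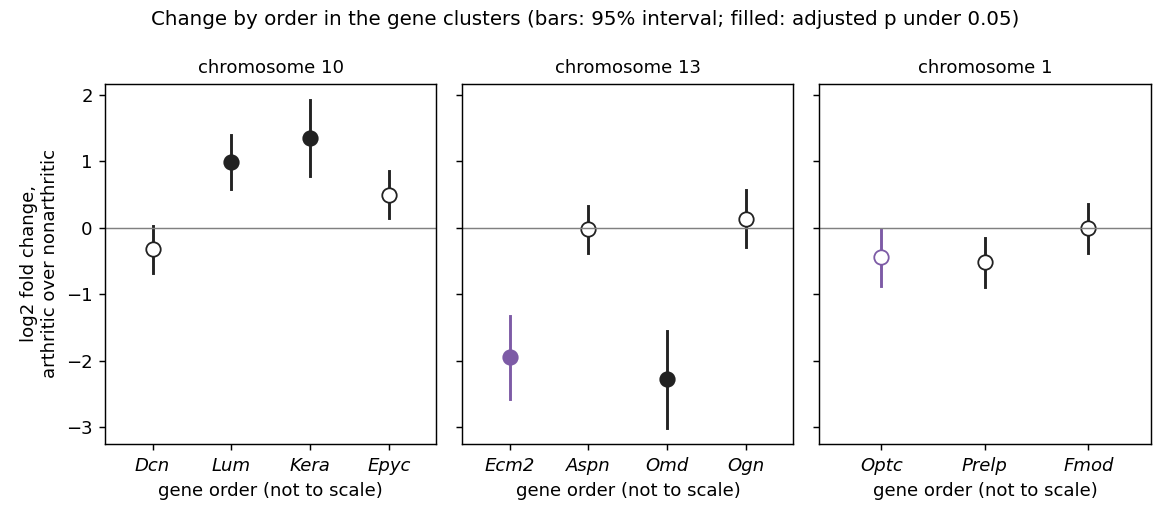
Log2 fold change of arthritic over nonarthritic synovium (vertical axis, bars 95% intervals) by order along chromosomes 10, 13 and 1, for the 10 genes' clusters (black) and relatives in the row (purple), filled where the adjusted p was under 0.05. On chromosome 13, Ecm2 and Omd lie far below 0 and Aspn and Ogn near it.

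Other small leucine-rich proteoglycan genes and close leucine-rich relatives, together called relatives here, also changed in both directions. Of 9 leucine-rich relatives listed, 8 were measured, 2 rose and 3 fell, with a median of -0.25. Chondroadherin, Chad, which binds collagen and integrins in cartilage, read 10.10 and 9.54 in the arthritic pools, against 13.51 and 13.36 in the nonarthritic pools (log2 fold change -3.62 ± 0.21 SE, adjusted p = 0.000117). The podocan gene Podn fell (-0.72 ± 0.16 SE, adjusted p = 0.0226), and the podocan-like gene Podnl1 rose (2.31 ± 0.26 SE, adjusted p = 0.00104). Podnl1 read 9.76 and 8.94 in the arthritic pools, against 6.98 and 7.10 in the nonarthritic pools, the last of which was not above the olfactory receptor level, so that its fold change may be a lower bound. Lrrc17, a secreted leucine-rich protein gene, read 11.81 and 11.75 in the arthritic pools, against 10.83 and 10.67 in the nonarthritic pools (1.03 ± 0.16 SE, adjusted p = 0.00441). Chadl (0.29), Nyx (-0.06) and Optc (-0.45) did not pass, and Nyx was at or under the olfactory receptor level on every array. With arthritic pool 1, arthritic pool 2, nonarthritic pool 1 and nonarthritic pool 2 left out in turn, 1, 1, 1 and 0 relatives rose and 2, 1, 1 and 1 fell.

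Collagens, which these proteins bind, moved in 1 direction. All 14 listed collagen genes rose, with log2 fold changes from 0.59 to 2.40 and a median of 0.95, against 8.72% of all genes that rose. The largest were Col11a1 (2.40 ± 0.23 SE) and Col12a1 (2.18 ± 0.23 SE), which sit in or on fibrils, and Col5a3 (1.41 ± 0.24 SE), a chain of the collagen that starts fibrils. Of the 10 proteoglycan genes, Lum and Kera lay within that range and the other 8 had values below it. All 14 collagens read higher on nonarthritic pool 1 than on nonarthritic pool 2. So did 19 of 20 genes of chondroitin and dermatan sulfate synthesis, 17 of 18 receptors and growth factors and 8 of the 10 proteoglycan genes. Among relatives 2 of 8 did, and among muscle markers 0 of 8. With arthritic pool 1, arthritic pool 2, nonarthritic pool 1 and nonarthritic pool 2 left out in turn, 0, 0, 5 and 2 of the 14 rose.

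Enzymes that build the sugar chains were also measured. For chondroitin and dermatan sulfate, 8 of 20 genes rose and 1 fell, with a median of 0.60. Csgalnact1 (1.85 ± 0.22 SE), which starts the chondroitin chain, the polymerising enzyme gene Chsy1 (1.58 ± 0.18 SE) and the sulfotransferase gene Chst11 (1.38 ± 0.21 SE) rose most, and Csgalnact2 fell (-1.14 ± 0.20 SE). With the pools left out in the same order, 0, 0, 6 and 1 rose and none fell. For keratan sulfate, the chain of most class II members, 2 of 10 genes rose and none fell, with a median of 0.14. They were the galactosyltransferase genes B4galt4 (0.90 ± 0.21 SE) and B4galt1 (0.81 ± 0.16 SE), and neither passed with any pool left out. With dim genes left out before the test, 3 of the 10 rose and 1 fell.

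Of 18 measured receptors and growth factors that members of the family are reported to bind, 5 rose and 3 fell, with a median of 0.085. Ccn4 (2.18 ± 0.24 SE), a matricellular protein gene, rose most. Tlr2 (1.39 ± 0.17 SE) and its coreceptor gene Cd14 (0.85 ± 0.21 SE), which respond to soluble biglycan, rose too. Bmp4 (-2.33 ± 0.37 SE), Bmp2 (-1.16 ± 0.25 SE) and Ccn2 (-1.13 ± 0.15 SE) fell. Tlr4 had a value of -0.47, and Tgfb1, Tgfb2 and Tgfb3 had values of 0.20, -0.24 and 0.47; these 4 did not pass and were chosen for mention after their values were seen. With the pools left out in the same order, 0, 0, 2 and 0 rose and 1, 0, 1 and 0 fell.

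Of 16 proteases reported to cut members of the family, 9 rose and 2 fell, with a median of 0.78. Mmp9 (3.84 ± 0.32 SE), Mmp13 (3.78 ± 0.74 SE) and Mmp8 (3.29 ± 0.17 SE) rose most, of which Mmp13, a collagenase, is known to cleave fibromodulin in cartilage, and Adamts5 (-0.87 ± 0.18 SE) and Mmp12 (-0.81 ± 0.22 SE) fell. Mmp13 read 13.13 and 12.74 in the arthritic pools, against 10.59 and 7.72 in the nonarthritic pools, which stood far apart. Mmp8 was not above the olfactory receptor level in either nonarthritic pool, so its rise may be understated. Mmp8 and Mmp9 are carried by neutrophils, whose 6 markers, of which Mmp8 is itself 1, all rose, and the part of those cells in the protease values was not tested. With the pools left out in the same order, 4, 3, 7 and 5 rose and none fell.

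Other matrix and cell surface proteoglycans also moved both ways, with 6 of 22 rising, 4 falling and a median of 0.04. Aggrecan, Acan (2.03 ± 0.22 SE), the glypican gene Gpc1 (1.19 ± 0.18 SE) and the syndecan gene Sdc1 (1.16 ± 0.19 SE) rose most. The testican gene Spock2 (-2.30 ± 0.20 SE), the receptor phosphatase gene Ptprz1 (-1.89 ± 0.19 SE) and Gpc3 (-1.04 ± 0.19 SE) fell most. Ptprz1 was not above the olfactory receptor level in either arthritic pool, so its fall may be understated. With the pools left out in the same order, 0, 0, 3 and 1 rose and 2, 1, 2 and 2 fell.

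**Figure D4:**
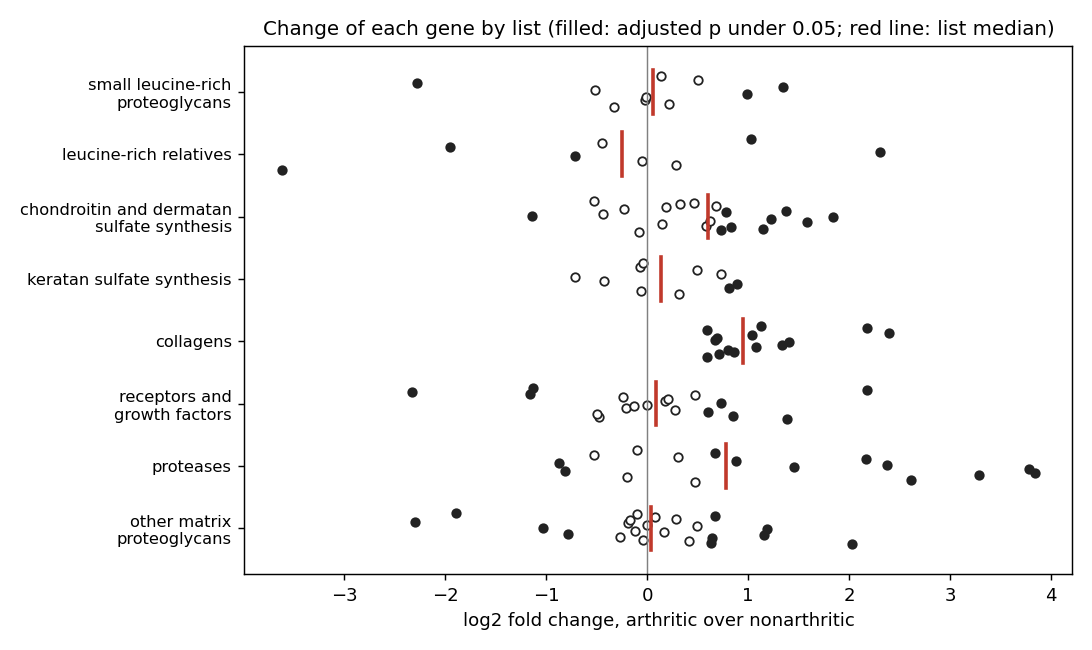
Log2 fold change of arthritic over nonarthritic synovium (horizontal axis) of each measured gene of 8 lists, filled where the adjusted p was under 0.05, with the list median as a red line. All 14 collagens lie right of 0, whereas the 10 small leucine-rich proteoglycan genes spread to both sides of a median of 0.06.

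The genes whose values over the 4 arrays were most like those of Kera, the member with the largest rise, were Fhl2, Ajuba and Rtl3, with distances of 0.0361, 0.128 and 0.132. The distance is the Euclidean one between log2 signals after the mean of each gene over the 4 arrays is taken off. Fhl2 read 10.40 and 9.79 in the arthritic pools, against 8.96 and 8.53 in the nonarthritic pools. For Omd, the member with the largest fall, they were Car3, a carbonic anhydrase gene, the growth factor gene Bmp4 and the synuclein gene Sncg, with distances of 0.0917, 0.185 and 0.236. Car3 read 11.92 and 10.75 in the arthritic pools, against 13.65 and 13.74 in the nonarthritic pools. A gap between its arthritic pools like that of Omd follows from choosing genes by this distance. With 4 arrays, likeness of this kind describes these pools alone.

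How many of the 10 genes passed depended on the processing and on every pool. The number was 5 with a variance prior that follows mean signal, which added Dcn and Prelp (16.7% of all genes called), and 5 with dim genes left out, which added Prelp and Epyc (28.5%). With quantile normalization again it was 4, with Prelp added (16.4%). It was 3, the same genes, with arrays centred on medians (15.5%), with the probe sets of a gene averaged (15.1%) and with the pool number as a block (10.1%). With arthritic pool 1 left out, Omd alone passed (2.93% of all genes called), and with nonarthritic pool 1 left out, Lum alone passed (5.5%). None of the 10 passed without arthritic pool 2 (0.685%) or without nonarthritic pool 2 (1.59%).

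**Figure D5:**
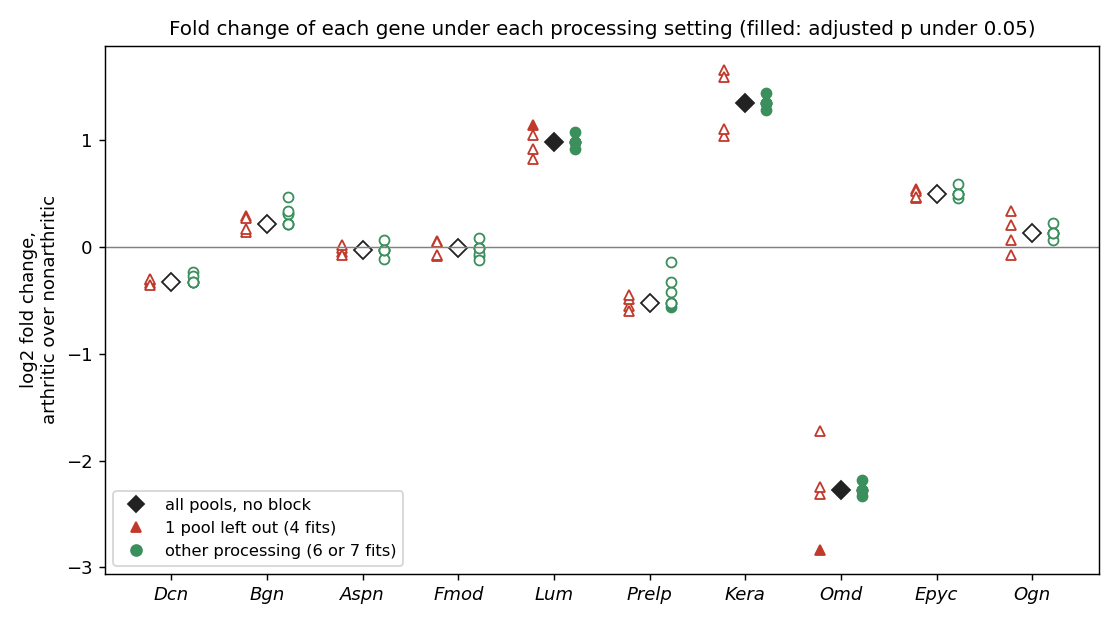
Log2 fold change of arthritic over nonarthritic synovium (vertical axis) of each of the 10 genes with all pools (black), with 1 pool left out (red) and with other processing (green), filled where the adjusted p was under 0.05. Lum, Kera and Omd keep their direction and pass in the 6 other processing settings, and with 1 pool left out Lum and Omd pass in 1 of 4 fits each and Kera in none.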

How the data were processed

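RNA of 4 synovial pools was measured on 1 array each. The deposited log2 values are 1 signal per probe set and array. Per the submitters' processing notes, the authors used RMA (robust multi-array average, a background correction with normalization across arrays and a summary over probes) in Affymetrix Power Tools and Expression Console. Neither version is given in the sources used here. That the scale is log2 was inferred from the values, which span 2.89 to 14.27. No detection calls were used, and the number of arrays limits the precision.

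Of 41345 probe sets, 23521 have 1 gene symbol in the platform table, of which 23328 were matched to RefSeq. They cover 22180 genes, and for each gene the probe set brightest on average was kept. Arthritic and nonarthritic pools were compared with limma 3.58.1 (lmFit and eBayes, 2-sided, no block) in R 4.3.3, with 2 residual and 5.98 prior degrees of freedom and Benjamini-Hochberg adjustment over all 22180 genes. Fold changes are arthritic over nonarthritic, and 95% intervals are unadjusted. Pools are stated to be biological replicates, so p-values reflect variation among pools rather than among mice. On simulated arrays of 22180 genes, the fit recovered 67 of 100 genes shifted by 2 log2 units and 6 of 100 shifted by 1, with 1 false call. Only those genes were shifted, a far smaller share than the 15.3% of genes that passed in the data. Adjusted p-values depend on that share, so these recovery rates do not carry over to the data.

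The 10 genes and all lists were chosen with earlier results of these data known, and the promoter motifs after the genes. Named genes are the 10 members, the relatives, up to 3 rises and 3 falls per list, and the 3 genes most like the members with the largest rise and fall. Beyond this rule, further chondrocyte and bone markers, Tlr4, Tgfb1, Tgfb2 and Tgfb3 were named after their values were seen. Cenpp was named for its place on chromosome 13. Marker lists leave out the 10 genes. Tsku, Chpf2 and Chst15 were listed but not analysed here, nor were the bone markers Bglap2, Spp1 and Runx2 and the adipocyte marker Cfd. Chad, Acan, Prg4, Col1a2, Col2a1 and Mmp8 each stand in more than 1 list. Alternatives changed the variance prior, a filter on dim genes (mean over arrays above the 95th percentile of olfactory receptor gene means), the normalization, the probe set per gene, a block for the pool number, and the pools used.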

Additional observations from a re-analysis of the deposited data

How the results depend on the processing

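Lum and Kera stayed higher and Omd lower, past the threshold, under each of the 6 other processing settings, and all 3 kept their direction with any pool left out. The number of the 10 genes called moved to 5 with the variance prior that follows mean signal and to 5 with dim genes left out (13804 genes tested), and was 0 to 1 with 1 pool left out. The number of all genes called was 152 to 1221 with 1 pool left out, against 3402 with all pools; a lone pool was then assumed to vary like the other group, and fewer degrees of freedom remained. Centring arrays on medians moved the median log2 fold change of all genes from 0.005 to 0.10, and the calls from 1933 higher and 1469 lower to 2314 and 1134. Signs of values near 0 were not stable: with centred arrays Aspn was 0.07 and Fmod 0.085, and with 1 pool left out Aspn ranged from -0.07 to 0.02, Fmod from -0.08 to 0.06 and Ogn from -0.07 to 0.34. No label says that a pool number is shared between groups. Deviations from the group mean of equally numbered pools correlated at 0.18 over genes, which are not independent, and the replicate block lowered the count of all genes called to 2243 and that of collagens that rose from 14 to 10; averaging probe sets gave 13. The other probe sets of Bgn, Fmod and Prelp, looked at after seeing the data, kept direction and did not pass. The cause of these shifts was not tested.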
